A study of Mus musculus with 32 samples.

Results

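Of the 55806 gene identifiers counted in this series of embryonic mouse kidneys, 9 genes are described here: Ntng2, Pnoc, Prss35, Bdnf, Htra1, Bdkrb2, Fibin, Kcns3 and Mc2r. They were chosen from the measured values, because the ENL T1 mutant moved them in opposite directions in sorted Six2 cells, which are nephron progenitors and their descendants, and in sorted Foxd1 cells, which are stromal progenitors and their descendants, both late in gestation (E18.5, in days of embryonic development). The values of those 2 contrasts are therefore given as a description, with no test. The tests below come from the other libraries: sorted Six2 cells at E14.5, and whole kidneys in which the mutant was expressed through either Cre line.

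ENL, encoded by Mllt1, is a reader of acetylated histones that carries a YEATS domain, and Wilms tumors of the kidney can carry mutations in that domain. T1 is an insertion and T3 a small deletion in the domain, each knocked into the mouse gene behind a floxed wild-type cassette and switched on by Cre, so that every mutant was heterozygous and kept a wild-type allele. Six2-TGC is a transgene that expresses Cre in nephron progenitors, and Foxd1GC is a knock-in of Cre into Foxd1 in stromal progenitors that disrupts the allele it sits in. Whole Six2 kidneys at E18.5 were Six2-TGC tg/+ with Enl +/+ (WT), Enl T1/+ (T1) or Enl T3/+ (T3), with 2 libraries each. Whole Foxd1 kidneys of that stage were Foxd1GC/+ with Enl +/+ or Enl T1/+, with 3 libraries each. Sorted cells carried, besides the same Cre and Enl alleles, a tdTomato reporter that Cre switches on, and the tdT+ cells were taken. There were 3 WT and 3 T1 libraries of Six2 cells at E14.5 and again at E18.5, and 4 WT and 4 T1 libraries of Foxd1 cells at E18.5. All controls thus carried the Cre allele of their mutants, and all Foxd1 animals, controls included, were heterozygous for Foxd1. The counts do not separate mutant from wild-type Mllt1 transcripts.

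The genes encode proteins of several kinds, most of them known for signaling outside the kidney. Bdnf is a neurotrophin that acts through the receptor Ntrk2, Pnoc is the precursor of the opioid-like peptide nociceptin, and Ntng2 is a netrin-G, a membrane-anchored ligand of synaptic adhesion proteins of the Lrrc4 family. Htra1 and Prss35 encode a secreted serine protease and a protein of the serine protease family, Bdkrb2 encodes the bradykinin B2 receptor and Mc2r the receptor for adrenocorticotropic hormone. Kcns3 encodes a voltage-gated potassium channel subunit that modifies channels built from Kcnb subunits, and Fibin encodes a secreted protein first described in fin bud development. In the developing kidney, nephron progenitors form the podocytes and tubules, whereas the surrounding stroma gives rise to interstitial cells, pericytes and mesangium and signals to the progenitors.

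Total counts ran from 2557443 to 157266455 per library, and the sorted Foxd1 libraries were the shallow ones, with at most 3508381 counts. Levels are given as CPM, a count scaled to the size of its library, here with TMM factors (a normalization by trimmed means) within each deposited table. Levels set across tables rest on separate scalings. A count of 3, below which a level was read as near background, corresponded to 0.0191 to 0.0446 CPM outside the sorted Foxd1 libraries and to 0.841 to 1.22 CPM in them. Mllt1 was between 76.5 and 125 CPM in whole kidneys, and no genotype comparison moved it by 1.5-fold. Its log2 fold change was negative in each of them. The edgeR adjusted p lay under 0.05 in E14.5 Six2 cells (-0.14, edgeR adjusted p = 0.0436) and in whole Six2-ENL T3 kidneys (-0.33, edgeR adjusted p = 0.0238). It also did so in whole Foxd1-ENL T1 kidneys (-0.27, edgeR adjusted p = 0.00102). Xist exceeded the Y-linked Ddx3y in all 6 whole Foxd1 libraries and in 0 of 8 sorted Foxd1 libraries. In whole Six2 kidneys it did so in 1 of 2 WT, 0 of 2 T1 and 2 of 2 T3 libraries. The sexes were thus not balanced over genotypes there, and their part in the results was not tested. The sorts were checked with marker lists. The 8 stroma markers summed to 5350 to 7310 CPM in WT sorted Foxd1 cells and to 250 to 376 CPM in WT sorted Six2 cells, and the 6 nephron progenitor markers to 109 to 161 and 447 to 584 CPM. In these bulk libraries, fewer cells of a type and less RNA per cell cannot be told apart.

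The genes lie on 6 chromosomes of GRCm38. Bdnf (chr2:109674700-109727007, plus strand) and Fibin (chr2:110360917-110363183, minus strand) are 634 kb apart. Ntng2 is at chr2:29194541-29253005 (minus), Htra1 at chr7:130936111-130985660 (plus), Prss35 at chr9:86743649-86758443 (plus), Kcns3 at chr12:11090202-11151056 (minus), Bdkrb2 at chr12:105563226-105595237 (plus) and Pnoc at chr14:65400673-65425472 (minus). Of the exonic bases of Ntng2, 13.99% are shared with 6530402F18Rik on the same strand, and of those of Bdnf, 14.4% with the antisense gene Gm45346. Reads were counted without strand, so reads of these stretches could belong to either gene. The other 7 genes share no exonic base with an annotated gene.

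RefSeq promoters (GRCm38.p6, from 250 bases before to 50 after the start) were at hand for 7 of the 9 genes, 14 promoters in all. Those of a pair with lower and a pair with higher levels in T1 nephron cells are shown, 5′ to 3′ on the gene's strand, with CG dinucleotides in capitals. They are Ntng2 (chr2:29248050-29248349, minus), Htra1 (chr7:130935953-130936252, plus), Fibin (chr2:110362944-110363243, minus) and the more upstream of 2 starts of Kcns3 (chr12:11150793-11151092, minus).
Ntng2: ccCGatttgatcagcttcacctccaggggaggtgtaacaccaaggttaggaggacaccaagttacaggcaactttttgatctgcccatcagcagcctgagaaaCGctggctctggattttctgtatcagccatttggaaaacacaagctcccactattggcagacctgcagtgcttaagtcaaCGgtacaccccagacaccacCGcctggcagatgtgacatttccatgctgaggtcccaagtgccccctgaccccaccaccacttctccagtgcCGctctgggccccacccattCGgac
Htra1: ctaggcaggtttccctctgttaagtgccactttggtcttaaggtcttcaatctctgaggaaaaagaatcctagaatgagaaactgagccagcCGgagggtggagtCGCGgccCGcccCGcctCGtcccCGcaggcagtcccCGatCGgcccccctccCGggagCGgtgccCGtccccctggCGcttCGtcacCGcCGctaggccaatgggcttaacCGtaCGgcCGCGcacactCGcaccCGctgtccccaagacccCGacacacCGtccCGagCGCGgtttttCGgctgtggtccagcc
Fibin: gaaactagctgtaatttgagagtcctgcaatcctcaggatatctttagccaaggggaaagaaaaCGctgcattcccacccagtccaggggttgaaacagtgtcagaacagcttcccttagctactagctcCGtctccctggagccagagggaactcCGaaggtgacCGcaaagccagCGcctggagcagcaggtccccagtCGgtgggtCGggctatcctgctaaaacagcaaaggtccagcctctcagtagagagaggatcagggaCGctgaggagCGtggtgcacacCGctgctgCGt
Kcns3: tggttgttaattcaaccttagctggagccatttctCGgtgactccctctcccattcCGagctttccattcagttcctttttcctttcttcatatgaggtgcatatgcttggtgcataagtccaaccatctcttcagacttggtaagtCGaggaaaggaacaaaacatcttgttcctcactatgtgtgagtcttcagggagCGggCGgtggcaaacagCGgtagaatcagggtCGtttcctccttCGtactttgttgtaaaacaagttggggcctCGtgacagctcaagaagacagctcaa
The promoters were unlike in CG content. That of Htra1 held 28 CG dinucleotides, a number that 14.2% of all 32851 RefSeq promoters reach, whereas Ntng2 held 6, Fibin 11 and the printed start of Kcns3 9, against a median of 7. The second Kcns3 start held 32, and the 7 Bdnf promoters between 2 and 13. None of the 14 promoters held TATAAA on either strand (searched as TATAAA and TTTATA; no other motif was searched but CG), a hexamer present in 13.6% of all promoters. No match says only that these letters are not in this window.

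A gene was called where edgeR's adjusted p lay under 0.05 and the change exceeded 1.5-fold. In the sorted cells at E18.5 that the choice was made on, this held for 11.7% of 22685 genes in Six2 cells (6.14% higher and 5.54% lower in T1) and for 5.81% of 12717 genes in Foxd1 cells (3.63% higher and 2.18% lower). Among the 12625 genes tested in both, 310 were called in both, 213 of them in the same and 97 in opposite directions, 41 lower in nephron and higher in stroma cells and 56 the other way round. The 9 genes are among these 97 by their choice. Ntng2, Pnoc, Prss35, Bdnf, Htra1 and Bdkrb2 were lower in T1 Six2 cells and higher in T1 Foxd1 cells, and Fibin, Kcns3 and Mc2r were the reverse. When the 97 genes were ordered by the smaller of their 2 absolute log2 fold changes, Pnoc, Bdnf, Prss35 and Fibin were the first 4 and Mc2r the seventh, while Htra1 (0.84), Kcns3 (0.83), Bdkrb2 (0.75) and Ntng2 (0.71) stood at ranks 44, 46, 60 and 67. Other genes with large values were AC140413.1, the sodium channel Scn7a, the peroxisomal transporter Abcd2, the transcription factor Foxp2 and the adhesion molecule Cntn6. Cntn6 was lower in nephron and higher in stroma cells, and the others were the reverse. Their smaller absolute log2 fold changes ran from 1.24 to 1.48.

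**Figure D1:**
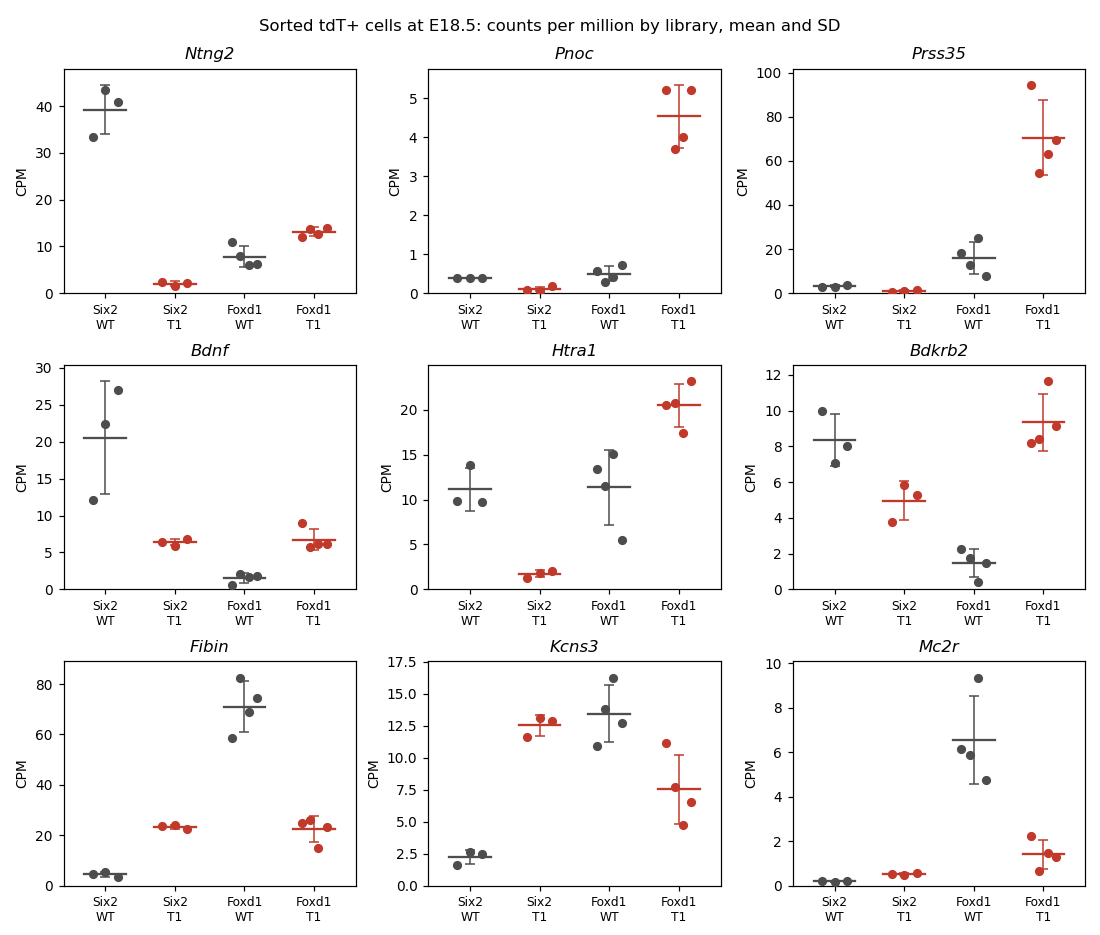
CPM (linear axes from 0) of the 9 genes in each library of sorted tdT+ cells at E18.5, by lineage and genotype, with 1 point a library and lines and bars for mean and SD (n = 3 for Six2, n = 4 for Foxd1). The genes were chosen for opposite T1 effects in these libraries, so the crossing pattern is a description: T1 Six2 cells lie below WT in 6 genes and above WT in 3, and in Foxd1 cells the T1 and WT libraries are apart for every gene except Kcns3.

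The levels of WT cells differed between the lineages in several of the genes. Per kilobase of exon, Fibin had the highest level in WT stroma cells, at 31.3 CPM per kb, followed by Prss35 (4.60), Kcns3 (4.25), Mc2r (4.01) and Htra1 (3.95), with Pnoc the lowest at 0.231. In WT nephron cells the order began with Ntng2 at 9.84 CPM per kb, then Htra1 (3.87) and Bdnf (3.30), and ended with Mc2r at 0.118. Between lineages, mean CPM in WT cells was higher in stroma for Mc2r (33.9-fold), Fibin (15.7-fold), Kcns3 (6.05-fold) and Prss35 (4.87-fold). It was higher in nephron for Bdnf (13.5-fold), Bdkrb2 (5.68-fold) and Ntng2 (5.04-fold), and close for Htra1 (1.02-fold) and Pnoc (1.29-fold). In T1 cells the difference was smaller for 5 of the genes. Fibin was at 22.4 CPM in T1 stroma and 23.4 CPM in T1 nephron cells, and Bdnf at 6.75 and 6.39 CPM. WT cells had 71.0 against 4.53 CPM of Fibin and 1.52 against 20.5 CPM of Bdnf. It was larger for Prss35, which reached 70.4 CPM in T1 stroma against 1.02 CPM in T1 nephron cells, and for Pnoc, Htra1 and Ntng2, the last with its order turned round. These comparisons rest on the libraries that chose the genes, and lineage, sequencing run and depth cannot be told apart in them.

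The neurotrophin gene Bdnf was measured at 12.1, 22.4 and 27.0 CPM in WT and at 6.48, 5.92 and 6.78 CPM in T1 nephron cells at E18.5, with no overlap (log2 fold change -1.67). In stroma cells of the same stage it was at 0.560, 2.06, 1.63 and 1.82 CPM in WT and at 8.94, 5.70, 6.18 and 6.19 CPM in T1, again without overlap (log2 fold change 2.15). The WT stroma values stand on 2 to 7 counts a library. Whole kidneys repeated the stroma direction and not the nephron direction. Whole Foxd1 kidneys had 1.04, 1.67 and 1.37 CPM in WT and 2.32, 2.56 and 2.49 CPM in T1, and Bdnf rose there (log2 fold change 0.85 ± 0.20 (SE, n = 3), edgeR adjusted p = 0.0051). Whole Six2 kidneys overlapped, with 2.07 and 1.64 CPM in WT, 2.07 and 1.74 CPM in T1, and 2.15 and 1.92 CPM in T3. The log2 fold changes of 0.04 ± 0.19 and 0.14 ± 0.19 did not pass the test (edgeR adjusted p = 0.919 and 0.685). In sorted Six2 cells at E14.5, WT had 1.54, 1.16 and 1.04 CPM and T1 1.67, 1.79 and 1.40 CPM, which overlapped (log2 fold change 0.40 ± 0.21, edgeR adjusted p = 0.292).

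Of 12 other neurotrophin ligands, receptors and sortilin-family receptors, all tested outside the sorted stroma, 3 rose and 3 fell in E14.5 nephron cells. In whole kidneys none fell, and 2 rose with Six2-ENL T1, 3 with Six2-ENL T3 and 1 with Foxd1-ENL T1. Sorcs3, a sortilin-family receptor, rose in all 3 kinds of mutant kidney, from 4.16 ± 0.94 to 10.6 ± 0.01 CPM with Six2-ENL T1 (SD, n = 2), to 12.4 ± 0.03 CPM with T3, and from 3.34 ± 0.41 to 6.69 ± 0.48 CPM with Foxd1-ENL T1 (n = 3). Ntrk2, the receptor of Bdnf, rose at E14.5 from 5.74 ± 1.20 to 10.6 ± 0.05 CPM (edgeR adjusted p = 0.00576). At E18.5 the sorted nephron cells had 3.70 ± 0.45 CPM in WT and 30.3 ± 4.3 CPM in T1, the libraries in which Bdnf was lower. Sorted stroma cells, where Bdnf was higher in T1, had 26.7 ± 9.1 CPM of Ntrk2 in WT and 49.1 ± 4.4 CPM in T1. Ntrk2 was thus higher in T1 in both lineages. Ngfr, the receptor shared by the neurotrophins, fell at E14.5 from 39.7 ± 5.6 to 14.9 ± 0.8 CPM (edgeR adjusted p = 0.000158). Sorcs1 showed the largest change of the list at E14.5, from 0.922 ± 0.155 to 7.94 ± 0.83 CPM (edgeR adjusted p = 2.91e-05).

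Pnoc, the nociceptin precursor, was low in most groups and highest in T1 stroma cells, at a mean of 4.53 CPM. WT nephron cells at E18.5 had 0.392, 0.382 and 0.383 CPM (27 to 31 counts) and T1 cells 0.0870, 0.0627 and 0.173 CPM (5 to 13 counts), with no overlap. WT stroma cells had 1 or 2 counts a library, 6 in all, and T1 stroma cells 11 to 16, 52 in all. In CPM these are 0.560, 0.295, 0.407 and 0.729 in WT, under the level of 3 counts, against 5.22, 3.69, 4.00 and 5.21 in T1. In whole Foxd1 kidneys, Pnoc stood at 0.105, 0.102 and 0.107 CPM in WT (8 counts each) and at 1.26, 1.37 and 0.746 CPM in T1 (54 to 103 counts). It rose there by 3.40 ± 0.37 on the log2 scale (SE, n = 3, edgeR adjusted p = 1.66e-05), but it entered the test through its T1 libraries alone, since its WT libraries lay under the minimum count. Whole Six2 kidneys had 4 and 4 counts in WT, 2 and 1 in T1 and 2 and 10 in T3, too few to be tested. E14.5 cells had 10, 9 and 16 counts in WT and 14, 0 and 23 in T1, which overlapped (log2 fold change 0.03 ± 0.99, edgeR adjusted p = 0.991). The library at 0 allows up to 3 counts. Of 6 other opioid peptides and receptors, 3 were tested in whole Foxd1 kidneys, and 2 of them rose there with T1. They were the delta receptor Oprd1 from 0.193 ± 0.045 to 0.514 ± 0.073 CPM (SD, n = 3, edgeR adjusted p = 0.0129) and the dynorphin precursor Pdyn from 0.403 ± 0.121 to 0.896 ± 0.161 CPM (edgeR adjusted p = 0.0133). At E14.5 the nociceptin receptor Oprl1 rose from 0.0329 ± 0.0129 to 0.272 ± 0.069 CPM (edgeR adjusted p = 0.00903), and the enkephalin precursor Penk from 8.15 ± 3.39 to 42.7 ± 15.1 CPM (edgeR adjusted p = 0.00307). Oprl1 entered its test through its T1 libraries alone, since its WT libraries lay under the minimum count, and its call is given no weight here. None of those tested fell in a genotype comparison. Besides the 3 in whole Foxd1 kidneys, 5 of the 6 were tested at E14.5 and in whole Six2 kidneys. In sorted cells at E18.5, 4 were tested in Six2 cells and 1 in Foxd1 cells.

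Ntng2, the netrin-G, had the largest nephron effect of the 9 genes. WT nephron cells at E18.5 had 33.4, 43.5 and 40.9 CPM and T1 cells 2.36, 1.54 and 2.25 CPM, with no overlap (log2 fold change -4.25). In stroma cells it was at 10.9, 7.96, 6.10 and 6.20 CPM in WT and at 11.9, 13.8, 12.7 and 14.01 CPM in T1 (log2 fold change 0.71), close to each other but without overlap. Whole Six2 kidneys, whose libraries the choice did not use, had 9.43 and 10.8 CPM in WT, 1.02 and 1.60 CPM in T1, and 1.26 and 2.04 CPM in T3. It fell there by 2.96 ± 0.27 on the log2 scale in T1 (edgeR adjusted p = 0.000475) and by 2.62 ± 0.27 in T3 (edgeR adjusted p = 0.000646), in all 4 mutant libraries, measured against the same 2 WT libraries. Whole Foxd1 kidneys overlapped, with 25.6, 24.9 and 26.3 CPM in WT and 22.3, 27.7 and 25.2 CPM in T1 (log2 fold change -0.03 ± 0.08, edgeR adjusted p = 0.809). At E14.5 Ntng2 was close to background, at 7, 4 and 2 counts in WT and 6, 1 and 0 in T1, and was not tested.

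Podocyte markers moved with Ntng2 in sorted Six2 cells and whole Six2 kidneys at E18.5. In sorted Foxd1 cells, where Ntng2 was higher in T1, their sums overlapped between genotypes. The 3 markers read here (Nphs1, Podxl and Ptpro), none of them at 0 in any group, summed to 2249 to 2606 CPM in WT and to 119 to 164 CPM in T1 nephron cells at E18.5. They summed to 605 to 711 CPM in WT, 185.2 to 198.8 in T1 and 184 to 199 in T3 whole Six2 kidneys, where 3 of 3 fell with either mutant. In whole Foxd1 kidneys they summed to 682 to 705 CPM in WT and 533 to 718 CPM in T1, with 0 of 3 called, and in sorted Foxd1 cells to 256 to 435 CPM in WT and 286 to 366 CPM in T1. Over the 32 libraries, the gene whose level was most like that of Ntng2 was its overlapping neighbour 6530402F18Rik (Pearson r = 0.95 on log2 CPM), and the third was the podocyte gene Nphs1 (r = 0.93), a description over libraries that share lineage, stage and genotype. The part of podocyte abundance in the Ntng2 values was not tested. Of the 4 netrin-G relatives and ligands tested in whole kidneys, none was called in any of the 3 comparisons by edgeR. At E14.5 Ntng1, the other netrin-G, rose from 1.10 ± 0.09 to 2.99 ± 0.22 CPM (SD, n = 3, edgeR adjusted p = 0.000826). The netrin-G2 ligand Lrrc4 fell from 1.30 ± 0.14 to 0.733 ± 0.075 CPM (edgeR adjusted p = 0.0403). In the sorted cells of E18.5, Ntng1 was higher in T1 in both lineages, at 0.548 ± 0.304 against 3.74 ± 0.88 CPM in nephron and 8.98 ± 1.00 against 35.0 ± 2.4 CPM in stroma cells, unlike Ntng2. Lrrc4c, the ligand of netrin-G1, was at 0.424 ± 0.491 CPM in WT and 7.13 ± 1.76 CPM in T1 stroma cells. Its WT mean lay under the level of 3 counts and was read as near background.

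The secreted protease Htra1 was at 9.80, 13.9 and 9.74 CPM in WT and at 1.28, 1.88 and 2.08 CPM in T1 nephron cells at E18.5 (log2 fold change -2.67). In stroma cells it was at 13.5, 11.5, 15.05 and 5.47 CPM in WT and at 20.5, 20.8, 17.4 and 23.1 CPM in T1 (log2 fold change 0.84). Neither pair of groups overlapped. In whole Six2 kidneys it was at 10.7 and 12.1 CPM in WT, 6.54 and 6.52 CPM in T1, and 8.11 and 6.67 CPM in T3. It fell by 0.80 ± 0.12 on the log2 scale in T1 (edgeR adjusted p = 0.00421) and by 0.63 ± 0.12 in T3 (edgeR adjusted p = 0.0113). These calls rest on single libraries: without T1 replicate 1 the first had an edgeR adjusted p of 0.0513, and without WT replicate 2 or T3 replicate 2 the second was at -0.51 and -0.49, under 1.5-fold. Whole Foxd1 kidneys went against the sorted stroma cells. They had 15.2, 17.1 and 15.5 CPM in WT and 12.6, 13.5 and 12.7 CPM in T1, a difference without overlap that passed the p threshold at less than 1.5-fold (log2 fold change -0.30 ± 0.08, edgeR adjusted p = 0.0104). At E14.5 it was at 1.12, 1.21 and 0.780 CPM in WT and 0.733, 0.581 and 0.711 CPM in T1, lower without overlap but short of the test (log2 fold change -0.60 ± 0.26, edgeR adjusted p = 0.181).

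Prss35, the other protease family gene, changed direction between stages. At E18.5 it was at 2.97, 2.88 and 3.90 CPM in WT and 0.707, 0.953 and 1.40 CPM in T1 nephron cells (log2 fold change -1.67). At E14.5 it was at 0.928, 0.635 and 0.780 CPM in WT and at 4.06, 1.31 and 2.78 CPM in T1, and rose (log2 fold change 1.82 ± 0.38 (SE, n = 3), edgeR adjusted p = 0.0174). The T1 libraries of E14.5 spread widely, and the call was lost without WT replicate 2 (log2 fold change 1.69, edgeR adjusted p = 0.0744), T1 replicate 1 (1.40, 0.0556) or T1 replicate 3 (1.80, 0.0546). In stroma cells at E18.5 it was at 18.2, 12.7, 24.8 and 7.66 CPM in WT and at 94.2, 54.7, 63.2 and 69.4 CPM in T1 (log2 fold change 2.16), the highest levels of the gene in the series. Whole Six2 kidneys had 8.15 and 9.88 CPM in WT, 5.12 and 4.92 CPM in T1, and 5.54 and 5.13 CPM in T3. Prss35 fell by 0.84 ± 0.12 and 0.76 ± 0.12 on the log2 scale (edgeR adjusted p = 0.00362 and 0.00516). Whole Foxd1 kidneys overlapped, with 8.06, 11.2 and 9.60 CPM in WT and 14.1, 10.2 and 13.5 CPM in T1. The difference passed the p threshold at less than 1.5-fold (log2 fold change 0.39 ± 0.14, edgeR adjusted p = 0.0404). Of 4 relatives of the proteases, Htra3 rose in 3 of the 4 comparisons. It went at E14.5 from 11.4 ± 2.8 to 19.1 ± 0.6 CPM (SD, n = 3, edgeR adjusted p = 0.0174) and in whole Six2 kidneys from 18.6 ± 2.8 to 30.3 ± 2.3 CPM with T1 (n = 2, edgeR adjusted p = 0.0076) and to 29.0 ± 2.6 CPM with T3 (edgeR adjusted p = 0.00992). Htra2, Htra4 and Prss23 were not called in any of them.

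The bradykinin receptor gene Bdkrb2 showed the smallest nephron effect, with 9.96, 7.08 and 7.99 CPM in WT and 3.74, 5.83 and 5.30 CPM in T1 cells at E18.5 (log2 fold change -0.75). Its stroma effect was larger, from 2.24, 1.77, 0.407 and 1.46 CPM in WT to 8.20, 8.39, 11.6 and 9.13 CPM in T1 (log2 fold change 2.55). The WT stroma values stand on 1 to 8 counts a library. In whole Foxd1 kidneys it rose from 3.92, 5.09 and 5.41 CPM to 7.70, 7.61 and 7.24 CPM (log2 fold change 0.64 ± 0.13 (SE, n = 3), edgeR adjusted p = 0.00188), without overlap. Without WT replicate 1 the change was 0.52, under 1.5-fold. Whole Six2 kidneys had 4.43 and 4.12 CPM in WT, 4.00 and 4.82 CPM in T1, and 5.21 and 4.36 CPM in T3. Neither mutant passed the test (log2 fold changes 0.04 ± 0.15 and 0.16 ± 0.15, edgeR adjusted p = 0.894 and 0.507). E14.5 cells had 3.49, 3.25 and 2.37 CPM in WT and 2.03, 3.49 and 2.24 CPM in T1, which overlapped (log2 fold change -0.22 ± 0.24, edgeR adjusted p = 0.637).

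Genes that make or break down kinins changed in the same kidneys. Of 12 listed, 10 were tested in whole kidneys. With Six2-ENL T1 as with T3, 1 rose and 4 fell, and with Foxd1-ENL T1 1 rose and 3 fell. Kng2, a kininogen, the precursor of bradykinin, fell in all 3 comparisons, from 54.3 ± 0.8 to 19.6 ± 3.3 CPM with Six2-ENL T1 (SD, n = 2, edgeR adjusted p = 0.000663), to 17.2 ± 3.2 CPM with T3, and from 64.9 ± 9.1 to 18.4 ± 1.1 CPM with Foxd1-ENL T1 (n = 3, edgeR adjusted p = 2.06e-08). Ace, the kininase that also makes angiotensin II, fell with Six2-ENL T1 from 170 ± 19 to 56.8 ± 4.1 CPM (edgeR adjusted p = 0.000309), and the plasma kallikrein gene Klkb1 rose from 0.269 ± 0.130 to 1.24 ± 0.21 CPM (edgeR adjusted p = 0.00542). Proximal tubule markers fell in the same comparisons, 5 of 5 with Six2-ENL T1 and T3 and 4 of 5 with Foxd1-ENL T1. Their sum ran from 1201 to 1628 CPM in WT, 243 to 299 in T1 and 222 to 227 in T3 whole Six2 kidneys and from 1709 to 1907 CPM in WT and 772 to 1004 in T1 whole Foxd1 kidneys, with none of the markers at 0, and their part in the kinin genes was not tested.

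Fibin had the highest level of the 9 genes per kilobase in whole kidneys and in WT sorted stroma cells, and was the reverse of the 6 genes above. In nephron cells at E18.5 it was at 4.70, 5.47 and 3.42 CPM in WT and at 23.8, 23.9 and 22.4 CPM in T1 (log2 fold change 2.37). In stroma cells it was at 58.6, 82.5, 68.7 and 74.4 CPM in WT and at 25.0, 26.2, 14.9 and 23.5 CPM in T1 (log2 fold change -1.66). Every independent comparison had the direction of its lineage. E14.5 nephron cells rose from 7.08, 6.79 and 9.31 CPM in WT to 30.6, 25.9 and 26.7 CPM in T1 (log2 fold change 1.86 ± 0.14 (SE, n = 3), edgeR adjusted p = 0.000134). Whole Six2 kidneys had 26.7 and 27.3 CPM in WT, 40.3 and 38.5 CPM in T1, and 43.4 and 43.3 CPM in T3. Both mutant groups lay above WT, and the rise was 0.68 ± 0.06 on the log2 scale in T3 (edgeR adjusted p = 0.000392) and 0.55 ± 0.06 in T1, which passed the p threshold (edgeR adjusted p = 0.00122) at less than 1.5-fold. Whole Foxd1 kidneys had 25.2, 24.4 and 25.4 CPM in WT and 16.4, 15.7 and 17.6 CPM in T1 and fell (log2 fold change -0.59 ± 0.07, edgeR adjusted p = 2.26e-05). That fall sits at the fold threshold, and without WT replicate 3, T1 replicate 1 or T1 replicate 2 it was between -0.58 and -0.55, just under 1.5-fold, with the p threshold still passed.

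Kcns3, the potassium channel subunit, followed Fibin. In nephron cells at E18.5 it was at 1.59, 2.62 and 2.46 CPM in WT and at 11.6, 13.1 and 12.9 CPM in T1 (log2 fold change 2.50). In stroma cells it was at 10.9, 13.8, 16.3 and 12.8 CPM in WT and 11.2, 7.72, 4.72 and 6.52 CPM in T1 (log2 fold change -0.83), where 1 T1 library overlapped the WT range. E14.5 nephron cells rose from 5.32, 4.35 and 3.88 CPM to 15.7, 14.1 and 15.04 CPM (log2 fold change 1.74 ± 0.13 (SE, n = 3), edgeR adjusted p = 0.000144). In whole Six2 kidneys it rose from 12.9 and 12.5 CPM in WT to 19.4 and 21.1 CPM in T1 (log2 fold change 0.67 ± 0.09, edgeR adjusted p = 0.00201) and to 22.4 and 20.6 CPM in T3 (0.76 ± 0.09, edgeR adjusted p = 0.000965). Whole Foxd1 kidneys were lower without overlap, at 13.6, 13.6 and 12.4 CPM in WT and 8.72, 8.57 and 9.90 CPM in T1. They passed the p threshold at less than 1.5-fold (log2 fold change -0.54 ± 0.09, edgeR adjusted p = 0.00057), reaching 1.5-fold without WT replicate 3 (-0.59) or T1 replicate 3 (-0.61). Of 11 other subunits of the channel family, 8 were tested at E14.5, where 3 rose, and 10 in whole kidneys. There 2 rose and 2 fell with Six2-ENL T1 as with T3, and 1 rose and 1 fell with Foxd1-ENL T1. Kcnb2, a channel-forming partner of Kcns3, rose in whole Six2 kidneys from 11.8 ± 1.3 to 19.3 ± 1.6 CPM with T1 (SD, n = 2, edgeR adjusted p = 0.00364) and to 21.8 ± 0.5 CPM with T3 (edgeR adjusted p = 0.00112), and at E14.5 from 1.39 ± 0.32 to 3.26 ± 0.31 CPM (n = 3, edgeR adjusted p = 0.00489). Kcns2, another silent subunit, was low and was called lower in all 3 kinds of mutant kidney. It entered these tests through its WT libraries alone, since its mutant libraries lay under the minimum count, and its calls are given no weight here. It went from 0.254 ± 0.098 to 0.0170 ± 0.0120 CPM with Six2-ENL T1 (n = 2, edgeR adjusted p = 0.016), to 0.0268 ± 0.0247 CPM with T3 (edgeR adjusted p = 0.0246) and from 0.267 ± 0.055 to 0.101 ± 0.024 CPM with Foxd1-ENL T1 (n = 3, edgeR adjusted p = 0.0441). Kcng3 rose at E14.5 from 0.0823 ± 0.0172 to 0.316 ± 0.106 CPM (edgeR adjusted p = 0.0322). Kcng1, a silent subunit, fell in whole Six2 kidneys from 1.57 ± 0.05 to 0.479 ± 0.150 CPM with T1 (edgeR adjusted p = 0.00722).

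Mc2r (chr18:68406907-68429320, minus strand), the adrenocorticotropic hormone receptor, was a stroma gene in these libraries. WT stroma cells had 6.17, 5.89, 9.35 and 4.74 CPM and T1 stroma cells 2.24, 0.671, 1.45 and 1.30 CPM (2 to 6 counts a library), with no overlap (log2 fold change -2.17). Nephron cells at E18.5 had 0.215, 0.166 and 0.199 CPM in WT and 0.511, 0.501 and 0.586 CPM in T1 (log2 fold change 1.46). In whole Foxd1 kidneys it fell from 1.20, 1.11 and 1.15 CPM to 0.624, 0.319 and 0.691 CPM, without overlap (log2 fold change -1.08 ± 0.30 (SE, n = 3), edgeR adjusted p = 0.0129). In whole Six2 kidneys WT had 1.04 and 1.40 CPM, T1 1.15 and 0.789 CPM, and T3 0.906 and 1.05 CPM, which overlapped (log2 fold changes -0.34 ± 0.26 and -0.32 ± 0.26, edgeR adjusted p = 0.487 and 0.462). E14.5 cells had 0.827, 1.11 and 0.856 CPM in WT and 1.02, 1.29 and 1.06 CPM in T1, which also overlapped (log2 fold change 0.29 ± 0.22, edgeR adjusted p = 0.473). Other cell type markers moved in the same kidneys, none of them at 0. The 5 pericyte and smooth muscle markers summed to 1198 to 1511 CPM in WT and 582 to 622 CPM in T1 whole Foxd1 kidneys, with 3 of 5 lower, and the 6 nephron progenitor markers to 278 to 295 and 421 to 528 CPM, with 4 of 6 higher. Their part in the values of the 9 genes there was not tested. Since the receptor is best known from the adrenal cortex, which lies next to the kidney, 5 cortex markers were read beside it. Cyp11b1 and Hsd3b1 were at 0 in every WT sorted Foxd1 library and Cyp21a1 as well in every T1 library. The 5 summed to 2.06 to 4.76 CPM in WT and 2.18 to 3.58 CPM in T1 stroma cells, most of it Star. In whole Foxd1 kidneys they summed to 4.31 to 7.66 CPM in WT and 4.20 to 4.47 CPM in T1, with Hsd3b1 at 0 in every T1 library and 0 of 2 tested markers called. Of 8 melanocortin genes, 6 were tested at E14.5 and 5 in whole kidneys. Among them edgeR called only Mc4r at E14.5, from 0.0205 ± 0.0193 to 0.363 ± 0.301 CPM (SD, n = 3, edgeR adjusted p = 0.0264), and Mc5r in whole Foxd1 kidneys, from 0.0656 ± 0.0139 to 0.289 ± 0.025 CPM (edgeR adjusted p = 0.0059). Both entered their tests through the T1 libraries alone, since their WT libraries lay under the minimum count. Their calls are given no weight here.

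Seen by stage, WT nephron cells carried more of the 6 genes that T1 lowered at E18.5 than they did at E14.5, and less of the 3 that T1 raised. The E18.5 libraries of this comparison are among those the genes were chosen on, so it is given as a description, with no test. The rises in WT went from 0.0328 to 39.3 CPM for Ntng2, from 1.24 to 20.5 CPM for Bdnf and from 1.04 to 11.1 CPM for Htra1. According to the paper, kidneys were dissociated with trypsin at E14.5 and with collagenase II at E18.5. Stage and dissociation cannot be told apart in these differences. In T1 nephron cells at E18.5 the mean level of 7 of the genes lay between the WT levels of the stages, and Fibin and Kcns3 lay above both. Prss35 went from 2.71 ± 1.37 CPM at E14.5 to 1.02 ± 0.35 CPM at E18.5 in T1 cells (SD, n = 3), while WT cells went from 0.781 ± 0.146 to 3.25 ± 0.57 CPM. The sorted cell mixture also differed by stage and genotype. Stroma markers summed to 405 to 496 CPM in WT and 663 to 1203 CPM in T1 Six2 cells at E14.5 and to 250 to 376 and 551 to 660 CPM at E18.5, with none of the 8 at 0. They did not all move together: 6 were called higher and 1 lower in T1 at E14.5, and 5 higher and 2 lower at E18.5. Nephron progenitor markers summed to 1655 to 1946, 846 to 1045, 447 to 584 and 188 to 243 CPM in the same order of groups. Red cell markers, with none of the 5 at 0, summed to 104 to 210 CPM in WT and 1550 to 2274 CPM in T1 Six2 cells at E18.5, and to 0.772 to 102 and 61.5 to 105 CPM at E14.5. The 5 macrophage markers summed to 33.4 to 35.8 and 72.9 to 80.5 CPM at E18.5 and to 8.66 to 49.8 and 22.4 to 43.4 CPM at E14.5, WT first, again with none at 0. In sorted Foxd1 cells, WT first, the pericyte and smooth muscle markers summed to 1682 to 2152 and 1214 to 1516 CPM. The macrophage markers summed there to 45.2 to 110.7 and 110.3 to 142.4 CPM. Stroma and nephron progenitor sums overlapped between the genotypes of sorted Foxd1 cells. The part of these markers in the values was not tested.

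**Figure D2:**
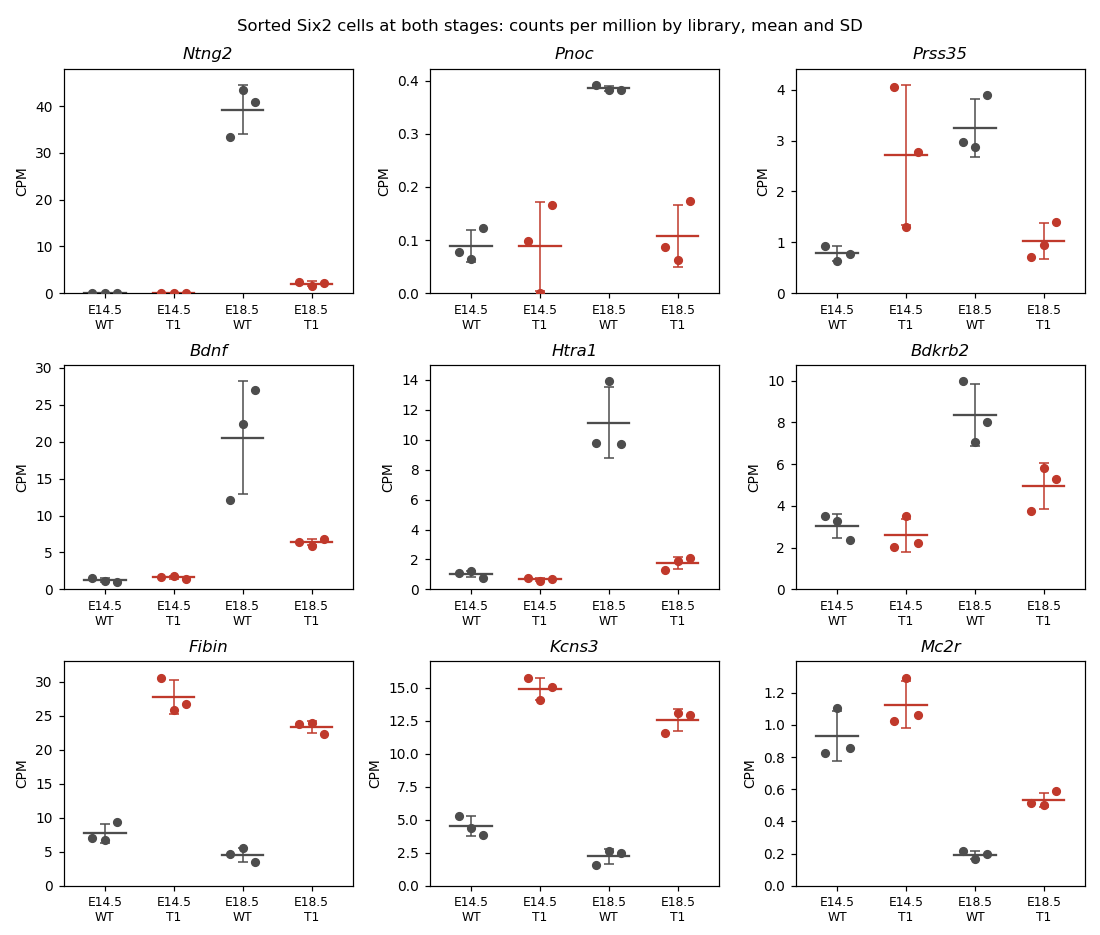
CPM (linear axes from 0) in sorted Six2 cells by stage and genotype, with 1 point a library and lines and bars for mean and SD (n = 3). Fibin and Kcns3 are higher in T1 at both stages, Prss35 is higher in T1 at E14.5 and lower at E18.5, and Ntng2 is near 0 at E14.5 in both genotypes.

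Counted over the genes, 3 of 8 tested were called in E14.5 nephron cells (Prss35, Fibin and Kcns3, all higher), where 6.40% of 22387 genes were called, 4.11% as higher and 2.28% as lower. In whole Six2-ENL T1 kidneys 4 of 8 were called (Kcns3 higher, Ntng2, Prss35 and Htra1 lower), against 7.77% of 23931 genes (2.88% higher, 4.88% lower). With T3 5 of 8 were called (the same 4 and Fibin, higher), against 9.62% (4.34% higher, 5.28% lower). T1 and T3 were compared with the same WT libraries and are not independent of each other. In whole Foxd1-ENL T1 kidneys 5 of 9 were called (Pnoc, Bdnf and Bdkrb2 higher, Fibin and Mc2r lower), or 4 if Pnoc is left out, against 10.2% of 20145 genes (2.65% higher, 7.53% lower). Every one of the called genes in whole kidneys had the sign it had in the sorted cells of that lineage, and of those not called, Bdnf, Bdkrb2 and Mc2r in whole Six2 kidneys and Ntng2 and Htra1 in whole Foxd1 kidneys had the other sign. Since the genes were chosen for opposite effects in sorted cells of both lineages, a share above that of all genes is no property shown for them as a class.

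**Figure D3:**
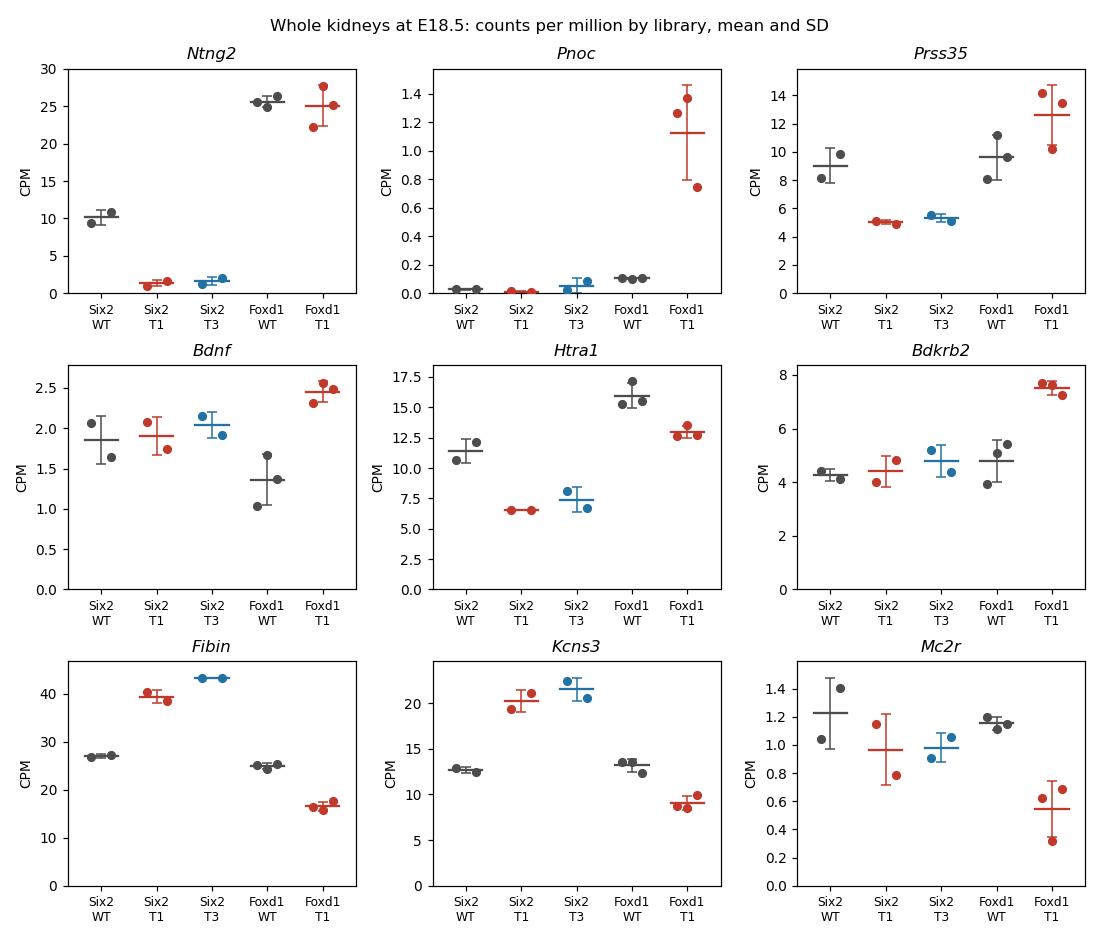
CPM (linear axes from 0) of the 9 genes in each whole-kidney library at E18.5, by Cre line and genotype, with 1 point a library and lines and bars for mean and SD (n = 2 for Six2, n = 3 for Foxd1). Ntng2 is low only in the 4 Six2 mutant libraries, Pnoc is high only in the 3 Foxd1 mutant libraries, and Fibin and Kcns3 are above WT in Six2 mutants and below WT in Foxd1 mutants.

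**Figure D4:**
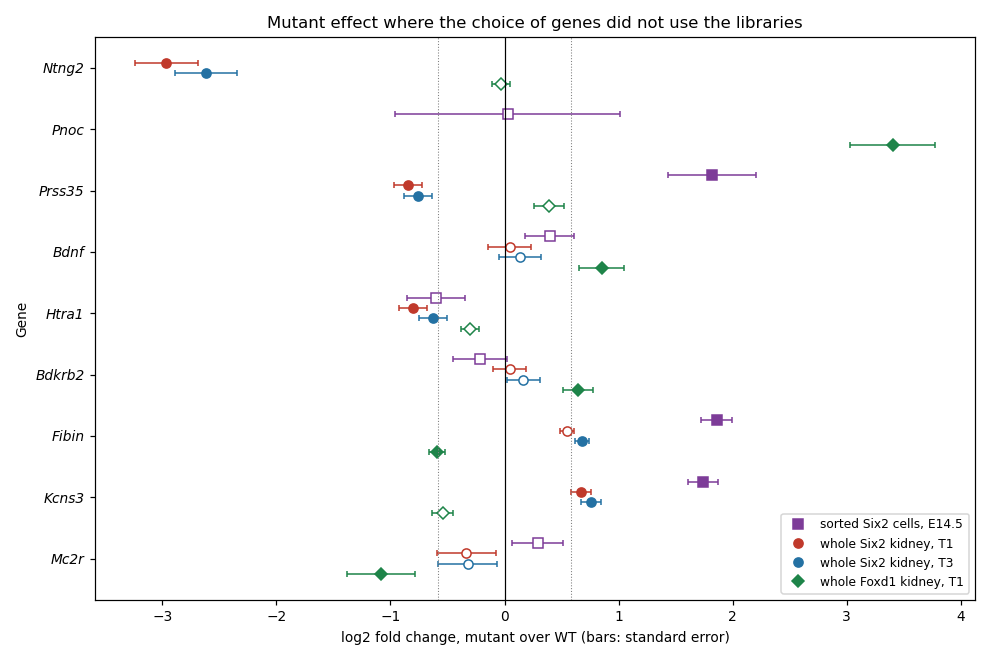
The log2 fold change of mutant over WT with its standard error, for each gene in the 4 comparisons whose libraries the choice did not use, with filled symbols for called genes, open symbols for genes that missed a threshold and dotted lines at a 1.5-fold change. Ntng2 at E14.5 and Pnoc in whole Six2 kidneys are absent because they were not tested.

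The difference between Cre lines was tested directly in whole kidneys, as the T1 log2 fold change with Foxd1-Cre minus that with Six2-Cre. With no fold threshold set, it was called for 6 of the 9 genes, 4 higher and 2 lower, or for 5 if Pnoc is left out, against 8.37% of 22826 genes (4.82% higher, 3.55% lower). The T1 effect was more positive in Foxd1 than in Six2 kidneys for Ntng2 (difference 2.93 ± 0.21 (SE), edgeR adjusted p = 3.98e-06), Pnoc (4.69 ± 0.89, edgeR adjusted p = 0.00525), Prss35 (1.22 ± 0.23, edgeR adjusted p = 0.00473) and Htra1 (0.49 ± 0.14, edgeR adjusted p = 0.0435). It was more negative for Fibin (-1.15 ± 0.10, edgeR adjusted p = 1.39e-05) and Kcns3 (-1.23 ± 0.13, edgeR adjusted p = 7.12e-05). Bdnf (0.79 ± 0.29, edgeR adjusted p = 0.119), Bdkrb2 (0.58 ± 0.20, edgeR adjusted p = 0.0993) and Mc2r (-0.76 ± 0.43, edgeR adjusted p = 0.311) did not pass. The value of Pnoc rests on 8 counts in the WT and 3 in the T1 Six2 libraries. Pnoc was too low to be tested in whole Six2 kidneys and entered this fit only through the Foxd1 T1 libraries, where it was high, so its call is given no weight here. For Htra1 both kidneys had lower levels in T1, so its difference is one of size, and it was lost in 8 of 10 fits that left out a library (edgeR adjusted p from 0.0549 to 0.159). The Cre line and the sequencing run cannot be told apart in this test, and the Foxd1 libraries were all Xist-positive while the T1 Six2 libraries were not.

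Among 57 partner genes of the 9 in all lists, 48 were tested at E14.5, and 13 of them rose while 4 fell, 35.4% against 6.40% of all genes. Their median change was 0.32 on the log2 scale, against 0.003 over all genes tested. In whole kidneys 6 rose and 6 fell of 50 with Six2-ENL T1, 24.0% against 7.77% of all genes (median 0.06 against -0.01). With T3 8 rose and 6 fell, 28.0% against 9.62% (0.20 against -0.002), and with Foxd1-ENL T1 6 rose and 4 fell of 48, 20.8% against 10.2% (0.06 against -0.003). The lists were drawn up with earlier results known and are given as counts, from which nothing is read about the lists.

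Within 500 kb of the 9 genes lay 175 other annotated genes, and 3 of 84 tested were called at E14.5 (3.57%). In whole kidneys the calls were 7 of 85 with Six2-ENL T1 (8.24%), 9 of 85 with T3 (10.6%) and 7 of 78 with Foxd1-ENL T1 (8.97%), close to the shares of all genes. Scara5, a ferritin receptor gene 241 kb from Pnoc, rose where Pnoc was not called, from 2.71 to 16.1 CPM at E14.5 and from 4.43 to 21.0 CPM in whole Six2-ENL T1 kidneys. Me1, the malic enzyme gene 47.7 kb from Prss35, fell with it in whole Six2 kidneys (log2 fold change -1.45 with T1 and -1.50 with T3) and also in whole Foxd1 kidneys (-0.63), where Prss35 was higher by 0.39. Ano3, 292 kb from Fibin, rose with it at E14.5 (0.98) and with T3 (0.72), whereas the tubule transporter Slc5a12, 234 kb away, fell with T3 (-2.59) and with Foxd1-ENL T1 (-1.30), where Fibin fell too. Next to Bdkrb2 in whole Foxd1 kidneys, Ak7 fell (-2.38), AU015791 fell (-0.996) and Tunar, whose WT mean lay under the minimum count, rose (1.59). Beside Kcns3, Rad51ap2 fell in whole Six2 kidneys from 0.238 CPM to 0.0286 with T1 and 0.0457 with T3, mutant means under the minimum count. Snap91, 7.5 kb from Prss35, rose with it at E14.5 (0.86), Scara3 with Pnoc in whole Foxd1 kidneys (0.62) while near Ntng2, with T3, Gm13420 rose (1.30) and Gm13394 fell (-0.66). 6530402F18Rik fell with the overlapping Ntng2 in whole Six2 kidneys (-2.21 with T1 and -1.92 with T3). Over the 32 libraries the gene most like each of the others was Gucy1b1 for Fibin (Pearson r = 0.97), Runx1t1 for Kcns3 (0.96), Plce1 for Bdkrb2 (0.95), Med27 for Htra1 (0.93), Rab32 for Prss35 (0.89), Elovl5 for Bdnf (0.89), Mef2c for Mc2r (0.87) and Tgfbi for Pnoc (0.85), values that include the libraries the genes were chosen on.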

How the data were processed

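Polyadenylated RNA of whole kidneys (stranded kit) and of sorted tdT+ cells (ultra-low-input kit) was sequenced from both ends. The authors aligned reads to mm10 with HISAT2 and counted them per gene with HTSeq without strand, and the deposited tables hold these counts, whole numbers for 54752 genes or 55471 in sorted Foxd1 cells, with no normalization. Groups and replicate numbers came from the sample titles, and nothing there says whether libraries came from separate animals, so p-values measure the spread between these libraries.

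Names and positions were taken from GENCODE vM21 on GRCm38, which had 55450 of the 55806 identifiers. Low counts were filtered with filterByExpr (at least 10 in a library and 15 in all), libraries were scaled by TMM, and genes were tested with the quasi-likelihood test of edgeR 4.0.16 (R 4.3.3), with Benjamini-Hochberg adjustment over all genes tested. Whole Six2 kidneys were fitted together, other comparisons on their own libraries. A called gene had an adjusted p under 0.05 and more than a 1.5-fold change, or the p alone for the difference between Cre lines. Library totals ran from 2557443 to 157266455, and low depth in sorted Foxd1 cells limits precision there. The limit of 3 counts covers counting error only. The fit was tested on simulated counts. The 9 genes and all lists were chosen with earlier results of these data known. Named besides them are partner genes called in a comparison (up to 3 a list, by size of change over the 4 comparisons not used in the choice), neighbours within 500 kb called together with their gene, the largest other genes called oppositely and the gene most like each in log2 CPM. Ntrk2, Pdyn, Lrrc4c, Kcnb2, Htra2, Htra4, Prss23 and Scara5 fall outside this rule and were named after their values were seen. Some genes covered by the rule or the marker lists are not reported here. Alternatives were edgeR's exact test, DESeq2 1.42.0, other scalings (RLE, library size only), other filters (none, over 1 CPM), other fold thresholds, a replicate block, other sets of libraries in the fit and each library left out. No 2 replicates were copies of each other (lowest chi-square per gene 1.36 over 33 pairs). Figures were drawn with matplotlib 3.10.9.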

Additional observations from a re-analysis of the deposited data

Results flagged for a closer look

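Among the groups of 4 sorted Foxd1 libraries, the only ones large enough to be checked for a library far from the others, Bdnf stood out in 1 T1 library, at 8.94 CPM against 5.70 to 6.19 CPM in the other 3. These values stand on 24 counts against 17 to 19, so the difference is one of few counts. Chance marks about 1 in 20 groups, and 18 groups (9 genes by 2 genotypes) were checked.

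The T1 effect in whole kidneys differed between Foxd1-Cre and Six2-Cre by edgeR's interaction test for 6 genes. The difference in log2 fold change, Foxd1 minus Six2, was 4.69 for Pnoc, 2.93 for Ntng2, 1.22 for Prss35, 0.49 for Htra1, -1.15 for Fibin and -1.23 for Kcns3. Pnoc entered this test only through the Foxd1 T1 libraries: it had 4 and 4 counts in WT and 2 and 1 in T1 whole Six2 kidneys and was not tested there. For Fibin and Kcns3 every T1 library lay above its WT libraries with Six2-Cre and below them with Foxd1-Cre. The Cre line and the sequencing run cannot be told apart in these differences.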

How the results depend on the processing

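Of the single values recomputed under the alternatives, 971 counted as unchanged. For tested values this means that direction and side of the threshold were kept. For values given with no test it means that direction was kept and the shift was below the replicate spread. Of the rest, 9 crossed into being called, 31 out of it and 10 changed sign. Another 4, given with no test, moved by more than the replicate spread. With a fold change over 2, the called genes fell from 4 to 1 in whole Six2-ENL T1 kidneys, from 5 to 1 with T3 and from 5 to 2 in whole Foxd1 kidneys, where 8 were called with no fold threshold. The neighbours called in any comparison that the choice did not use went from 14 to 42 with no fold threshold and to 9 over 2-fold, whereas partner genes stayed within 1.5 times their 31. Among the 9 genes DESeq2 changed 1 call, that of Bdkrb2 between Cre lines (0.60, adjusted p = 0.0357). Library size scaling put Htra1 with T3 (-0.55) and Fibin in whole Foxd1 kidneys (-0.58) under 1.5-fold and Fibin with Six2-ENL T1 over it (0.62). With T3 in the fit, Htra1 between Cre lines had an edgeR adjusted p of 0.0603.

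Values that changed sign were all uncalled. Leaving out 1 library each, Pnoc at E14.5 ran from -0.77 to 0.59, Bdnf in whole Six2 kidneys from -0.090 to 0.22 with T1 and from -0.0032 to 0.31 with T3, Bdkrb2 with T1 from -0.084 to 0.19 and Ntng2 in whole Foxd1 kidneys from -0.10 to 0.053. Where leaving out a library left 1 in a group, it was assumed to vary like the other groups. With the replicate number as a block, Pnoc at E14.5 went to -0.45 (edgeR adjusted p = 0.841) and no call of the 9 genes changed, while called partner genes went from 31 to 28 and called neighbours from 14 to 13. The numbers do not pair the libraries, since correlations of same-numbered libraries after removing group means ran from -0.0791 to 0.0997. Depth limits sorted Foxd1 cells, where 3 counts are about 1 CPM. The cause of none of these shifts was tested.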
